A study of Mus musculus with 6 samples.

Results

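Slc1a3, Gfra2, Col14a1 and Aldh1l1 are 4 genes best known outside the immune system, and here their RNA is described in mouse macrophages differentiated from bone marrow (BMDMs). They are 4 of 16519 genes in a table of RNA sequencing read counts. They were grouped as non-immune genes and selected on their measured counts. Each was lower in all 3 KO libraries than in any WT library, as were 579 (4.59%) of the 12605 genes tested. That contrast is therefore given as a description, with no test, and supports nothing about these genes. KO cells came from Trmt61a f/f LysmCre mice, whose Cre recombinase is inserted in the lysozyme gene Lyz2 and acts in myeloid cells. WT cells came from Trmt61a f/f mice without Cre, so the floxed alleles are common to both groups, and loss of Trmt61a and presence of Cre cannot be told apart. Trmt61a is the methyltransferase subunit of the enzyme that places m1A, a methylated adenosine, on tRNAs. No treatment, age or strain background is stated in the labels, nor is it stated that the 3 libraries per genotype are separate animals or cultures, so any p-value speaks only of how these libraries vary, which may be technical variation.

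Slc1a3 (GLAST, or EAAT1) is a sodium-driven transporter that takes glutamate and aspartate into cells, and it is best known for clearing glutamate around astrocytes. Gfra2 is a receptor anchored in the outer membrane leaflet that binds neurturin, a growth factor of the GDNF family, and signals in neurons with the tyrosine kinase Ret. Col14a1 encodes a FACIT collagen, a class that sits on the surface of collagen fibrils in tendon, skin and other connective tissue. Aldh1l1 is a cytosolic folate enzyme that turns 10-formyltetrahydrofolate into tetrahydrofolate and carbon dioxide, is abundant in liver and serves as an astrocyte marker. In the deposited annotation, 0 of the 48 gene ontology terms of Slc1a3, 0 of 12 of Gfra2, 0 of 11 of Col14a1 and 0 of 17 of Aldh1l1 held any of 7 immune word stems. Such a term was present for 12.9% of the 12605 tested genes.

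The genes lie at separate loci of the mouse genome (mm10, coordinates from RefSeq on GRCm38.p6). Slc1a3 (Entrez Gene 20512) lies on the minus strand of chromosome 15, from 8634124 to 8710807. Col14a1 (12818) lies on the plus strand of the same chromosome, from 55307644 to 55520803. Gfra2 (14586) is on chromosome 14, from 70890107 to 70979840, and Aldh1l1 (107747) on chromosome 6, from 90550768 to 90599171, both on the plus strand. No other protein-coding gene of GENCODE M21 overlaps these 4 genes, but non-coding or predicted genes do, namely Gm37310 at Slc1a3, Gm34588 at Gfra2, 1700040F17Rik, Gm18787, Gm49257 and Gm52209 at Col14a1, and Gm15756, Gm44236 and Gm45901 at Aldh1l1. Whether counting used strand is not known here, so reads of such overlapping genes cannot be told apart from those of the 4 genes.

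RefSeq promoter windows were matched for 2 of the 4 genes, Slc1a3 and Aldh1l1, and the 250 bases before the start of transcription in that table are shown because these genes share a direction between genotypes and differ in its size. Capitals mark every match, on either strand, to the letters GGGCGG of the GC box, CCAAT of the CCAAT box, TATAAA of the TATA box, TGACG of the cAMP response half-site or CANNTG of the E-box, and no match overlaps another. The windows are chr15:8710808-8711057 on the minus strand and chr6:90550543-90550792 on the plus strand of GRCm38.p6. The last bases of the Aldh1l1 window lie inside the gene span given above, which begins at 90550768. GENCODE M21 begins this gene further upstream, at 90486427, and the window does not cover that start.
Slc1a3: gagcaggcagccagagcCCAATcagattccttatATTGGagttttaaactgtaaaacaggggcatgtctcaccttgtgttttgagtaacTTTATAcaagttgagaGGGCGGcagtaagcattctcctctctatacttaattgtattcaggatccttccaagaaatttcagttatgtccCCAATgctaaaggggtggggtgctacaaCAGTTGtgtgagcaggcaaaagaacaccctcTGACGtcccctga
Aldh1l1: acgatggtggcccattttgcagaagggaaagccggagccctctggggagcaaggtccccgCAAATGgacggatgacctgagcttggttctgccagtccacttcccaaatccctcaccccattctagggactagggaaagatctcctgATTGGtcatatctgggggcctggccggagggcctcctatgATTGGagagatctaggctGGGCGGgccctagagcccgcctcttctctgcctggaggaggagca

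The windows share some motif letters and differ in others. Each held 1 GC box match and 1 E-box match, which 32.7% and 66.2% of 32851 such mouse windows hold. CCAAT occurred at 3 places before Slc1a3 and at 2 before Aldh1l1, and in 33.8% of all windows. The Slc1a3 window alone of this pair had a TATA box match, starting at position -161 from the start of transcription, and a cAMP response half-site, starting at -13. Those letters occur in 12.4% and 17.8% of all windows. GAGGAA, the core of sites for the myeloid factor PU.1, and TGANTCA, the AP-1 site, matched neither window, against 23.3% and 6.75% of all windows. The Slc1a3 window was 44.8% G or C and the Aldh1l1 window 59.6%, around a median of 52.4% over all windows.

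The libraries held between 37021855 and 41033179 counts, and counts-per-million values (CPM) below use library sizes scaled by TMM. Trmt61a itself had 20, 30 and 22 counts in KO 1 to 3, against 183, 155 and 208 in WT 1 to 3, a log2 fold change of -2.92 ± 0.28 (SE; edgeR quasi-likelihood test, adjusted p = 0.00219). The macrophage label was checked with Adgre1, Csf1r, Cd68, Itgam, Mertk and Fcgr1, all 6 of which were abundant, with a summed level between 9925 and 11219 CPM in KO and between 10122 and 10810 CPM in WT. In pairwise chi-square comparisons of counts, KO 1 and KO 3 differed most among KO libraries (34.2 per degree of freedom, against 11.4 for KO 2 and KO 3) and WT 2 and WT 3 most among WT libraries (34.0, against 16.5 for WT 1 and WT 3 and 15.04 for WT 1 and WT 2). KO 1 was thus farthest from the other KO libraries and WT 3, by a little, from the other WT libraries. Results for the 4 genes are also given without KO 1, without WT 3 and without KO 1 and WT 2 together.

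Slc1a3 had the widest gap between genotypes. It had 22, 11 and 14 counts in KO 1 to 3, which is 0.583, 0.277 and 0.343 CPM, against 59, 90 and 137 counts in WT 1 to 3, which is 1.60, 2.26 and 3.34 CPM. The highest KO library, KO 1, stood at 36.5% of the lowest WT library, WT 1. Each genotype also varied about 2.1-fold from its lowest to its highest library. Its mean was 0.401 ± 0.161 CPM in KO, against 2.40 ± 0.877 CPM in WT (SD, n = 3 each), which puts KO at 16.7% of WT. The edgeR log2 fold change, KO minus WT, was -2.58 ± 0.44 (SE), the third lowest of the 12605 tested genes. It was -2.94 without KO 1, -2.26 without WT 3 and -2.98 without KO 1 and WT 2. In such bulk samples, fewer cells that express a gene and less of its RNA per cell cannot be told apart.

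Col14a1 had the next lower KO share. Its counts were 21, 18 and 11 in KO 1 to 3 (0.557, 0.453 and 0.269 CPM), against 48, 64 and 102 in WT 1 to 3 (1.30, 1.61 and 2.48 CPM). KO 3 was lowest of all and WT 3 highest of all, and the highest KO value was 42.8% of the lowest WT value. The mean was 0.426 ± 0.146 CPM in KO, against 1.80 ± 0.614 CPM in WT (SD, n = 3 each), a KO level of 23.7% of WT. The log2 fold change was -2.07 ± 0.44 (SE), and it was -2.31 without KO 1, -1.77 without WT 3 and -2.38 without KO 1 and WT 2.

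Gfra2 followed, with a tighter KO group than Slc1a3 and Col14a1. It had 18, 29 and 31 counts in KO 1 to 3 (0.477, 0.730 and 0.759 CPM), against 55, 105 and 106 counts in WT 1 to 3 (1.49, 2.64 and 2.58 CPM). In KO the low library was KO 1 and in WT it was WT 1, while the other libraries of each genotype lay close together. The highest KO value was 50.9% of the lowest WT value. The mean was 0.655 ± 0.155 CPM in KO, against 2.24 ± 0.646 CPM in WT (SD, n = 3 each), so KO stood at 29.3% of WT. The log2 fold change was -1.76 ± 0.38 (SE), and it was -1.58 without KO 1, -1.65 without WT 3 and -1.45 without KO 1 and WT 2.

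Aldh1l1 differed from the other 3 genes in both level and size of difference. It had 438, 508 and 418 counts in KO 1 to 3 (11.6, 12.8 and 10.2 CPM), against 629, 706 and 635 counts in WT 1 to 3 (17.05, 17.7 and 15.5 CPM). The groups were closer than for the other genes, the highest KO library being at 82.7% of the lowest WT library, and the spread within a genotype was also narrower, at 11.1% of the mean in KO and 6.95% in WT. Its mean was 11.5 ± 1.28 CPM in KO, against 16.7 ± 1.16 CPM in WT (SD, n = 3 each), a KO level of 68.9% of WT. The log2 fold change was -0.54 ± 0.12 (SE), and it was -0.54 without KO 1, -0.59 without WT 3 and -0.50 without KO 1 and WT 2. By size of fall it was number 350 of the tested genes, where Col14a1 was number 10 and Gfra2 number 15.

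**Figure D1:**
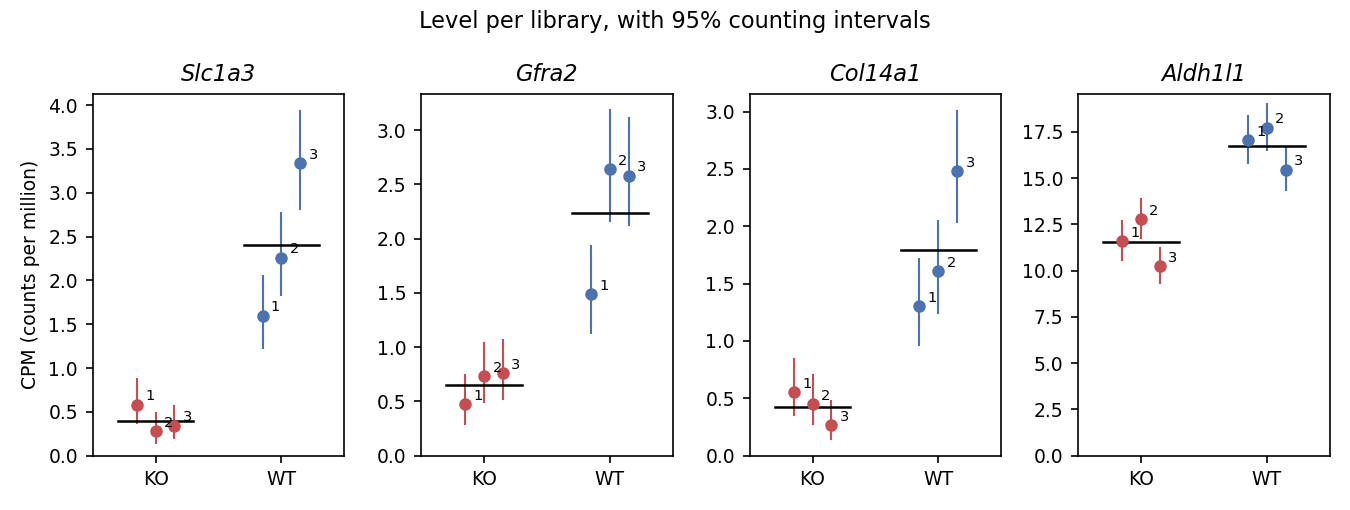
Level of each gene in CPM (y axis, from 0) in the 3 KO and 3 WT libraries; points are libraries labelled by replicate number, vertical lines are 95% Clopper-Pearson counting intervals and horizontal bars are means. Every KO point lies below every WT point in all 4 panels, by choice of the genes, with KO means at 16.7% (Slc1a3), 29.3% (Gfra2), 23.7% (Col14a1) and 68.9% (Aldh1l1) of WT.

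Depth limits the 3 rarer genes more than Aldh1l1. The 11 Slc1a3 counts of KO 2 carry a 95% Clopper-Pearson interval from 0.138 to 0.496 CPM, and the 22 counts of KO 1 one from 0.365 to 0.883 CPM, which ends below the interval of WT 1 (1.22 to 2.06 CPM). For Gfra2 the highest KO interval (KO 3, 0.515 to 1.08 CPM) ended below the lowest WT interval (WT 1, 1.12 to 1.94 CPM). For Col14a1 the ends were 0.851 CPM in KO 1 and 0.959 CPM in WT 1, and for Aldh1l1 13.95 CPM in KO 2 and 14.3 CPM in WT 3. These intervals cover counting error only, and not the spread between libraries. A gap between genotypes was part of the choice of the genes. All 4 genes passed the filter on low counts, and each would also have passed on its KO libraries alone (a cutoff of 0.252 CPM, against a lowest KO value of 0.269 CPM, for Col14a1).

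Lying lower in all KO libraries was not rare. The 579 tested genes that did so had log2 fold changes between -2.92 and -0.02 and a median of -0.19. At the edge of that choice, Cnot7 lay just inside, its highest KO library at 99.997% of its lowest WT library, and Tia1 just outside, at 100.001%. By the edgeR quasi-likelihood test with Benjamini-Hochberg adjustment, 4 tested genes (0.0317%) passed an adjusted p of 0.05, of which 3 (0.0238%) were lower in KO, and 391 genes (3.1%) had an unadjusted p under 0.05. DESeq2 called 16 genes and limma voom 4. The central 90% of all log2 fold changes lay between -0.34 and 0.35, with a median near 0.

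**Figure D2:**
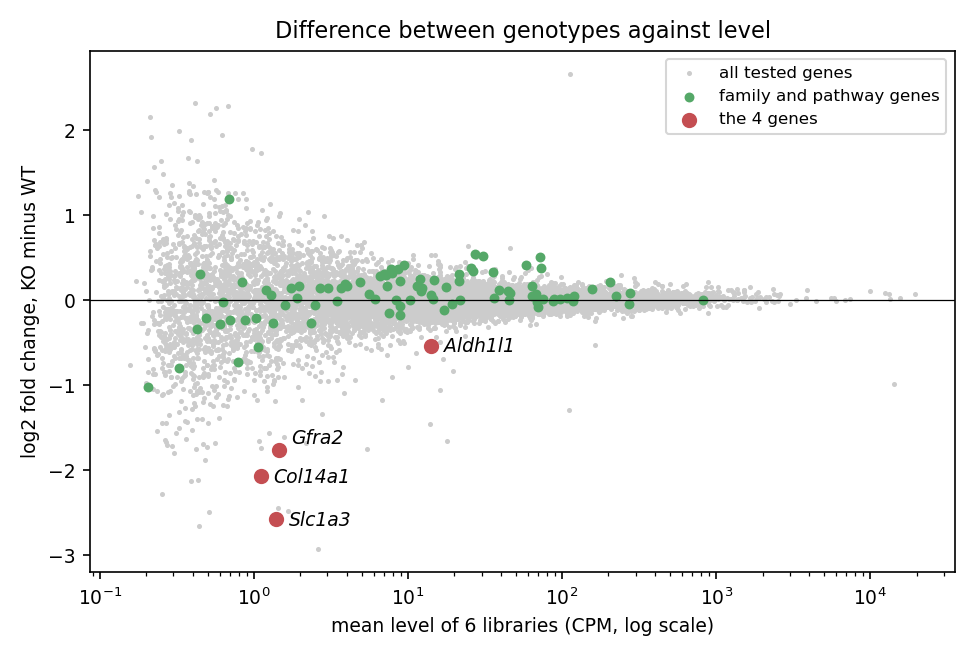
Log2 fold change, KO minus WT (y axis), against the mean CPM of the 6 libraries (x axis, log scale) for 12605 tested genes in grey, the 90 tested family and pathway genes in green and the 4 chosen genes in red. Slc1a3 (-2.58), Col14a1 (-2.07) and Gfra2 (-1.76) lie at low levels below the bulk of genes, and Aldh1l1 (-0.54) lies at a higher level.

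The other genes of the pathways around these 4 were then examined, with the members themselves left out. Among 90 tested family and pathway genes, 0 passed in edgeR, DESeq2 or limma voom, and edgeR gave an unadjusted p under 0.05 to 1. In 2 of the 90 (2.22%) all KO libraries lay below all WT libraries, against 4.59% of all tested genes. Their median log2 fold change was 0.07, and 27 of the 90 lay below 0, against 6297 of all 12605 tested genes. The fibrillar collagen list described below weighs on that count, with 2 of its 29 tested genes below 0.

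In the SLC1 family of glutamate and neutral amino acid transporters, Slc1a3 was the rarest tested gene in KO and the next to rarest in WT, per length of exon. Its level was 0.0470 CPM per kb in KO and 0.281 CPM per kb in WT. Slc1a5, which carries glutamine and other neutral amino acids, was by far the highest, at 9.76 CPM per kb in KO and 9.02 CPM per kb in WT, and its log2 fold change was 0.11 ± 0.09 (SE). Slc1a4, another neutral amino acid carrier, had 0.398 CPM per kb in KO and 0.414 CPM per kb in WT, with a log2 fold change of -0.05 ± 0.40. Slc1a2, the other main glutamate transporter of astrocytes, had 27, 20 and 29 counts in KO and 22, 32 and 36 in WT, with a log2 fold change of -0.24 ± 0.44. Its libraries overlapped between genotypes, and none of these 3 relatives passed. Slc1a1 (6, 12 and 2 counts in KO, 1, 0 and 5 in WT) and Slc1a6 (5, 4 and 1 counts in KO, 0 in each WT library) were too rare to be tested.

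Genes that use or supply glutamate, including the makers of glutathione, showed no call among 17 tested, with 0 at an unadjusted p under 0.05 and 13 above 0. The 4 with the smallest p were all above 0. Gclc and Gclm, the subunits of the enzyme that begins glutathione synthesis, had log2 fold changes of 0.11 and 0.16. Slc7a11 and Slc3a2, the chains of the cystine and glutamate exchanger, had 0.21 and 0.08.

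Among the GDNF family receptors, Gfra2 was the gene with the highest level per length in WT, at 0.632 CPM per kb, against 0.185 CPM per kb in KO. Gfra4, the receptor for persephin, was close to it in WT at 0.586 CPM per kb, with 0.398 CPM per kb in KO. Gfra4 had 35, 28 and 39 counts in KO 1 to 3 and 53, 45 and 51 in WT 1 to 3, so that its KO libraries were also all below its WT libraries, but it did not pass (log2 fold change -0.56 ± 0.37 SE). Gfra1, the GDNF receptor, had between 1 and 12 counts in KO and between 3 and 18 in WT (-1.02 ± 0.89 SE). Ret, the signalling partner of all these receptors, had 29, 30 and 36 counts in KO and 44, 33 and 33 in WT, which overlap (-0.23 ± 0.40 SE). Ncam1, an adhesion molecule that can serve as another partner, had 0.29 ± 0.34.

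The ligands were scarce. Nrtn, the gene of the Gfra2 ligand neurturin, had 5, 8 and 2 counts in KO and 9, 1 and 1 in WT. Gdnf had 0, 27 and 5 counts in KO and 8, 0 and 14 in WT, so that its libraries differed more within a genotype than between genotypes, and Artn had at most 2 counts in any library. Gdf15, a stress-induced hormone that acts through a relative of these receptors, was the most abundant gene of the list, at 18.6 ± 2.47 CPM in KO, against 16.8 ± 1.98 CPM in WT (SD, n = 3 each), and did not pass (0.15 ± 0.13 SE).

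Col14a1 was a minor FACIT collagen in these cells, at 0.0608 CPM per kb in KO and 0.256 CPM per kb in WT. Col12a1, its closest relative in structure, was at 2.59 CPM per kb in KO and 2.07 CPM per kb in WT, with a log2 fold change of 0.33 ± 0.33 (SE). Col20a1 had 424, 411 and 377 counts in KO and 437, 399 and 366 in WT, which overlap (0.00 ± 0.15 SE). Col16a1 (0.19), Col19a1 (-0.21) and Col9a3 (-0.21) did not pass either. Col9a2 and Col22a1 had at most 6 counts in any library and were not tested.

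The fibrillar collagens, on which FACIT collagens sit, and the genes that process and bind them lay mostly on the other side of 0 from Col14a1. Of 29 tested, 27 were above 0 and 2 below, where 6297 of all 12605 tested genes lay below 0. The median log2 fold change was 0.24 where that of all genes was near 0, and 0 passed. The rise was not shared by all KO libraries. The mean deviation of this list from its mean over the 6 libraries, on the log2 scale, was -0.31, 0.42 and 0.20 in KO 1 to 3. In WT 1 to 3 it was 0.02, -0.34 and 0.01, so the genotypes overlapped. Fmod, which encodes the fibril-binding proteoglycan fibromodulin, was the single gene with an unadjusted p under 0.05 (29, 55 and 30 counts in KO, 10, 21 and 19 in WT; 1.19 ± 0.49 SE). Lox and Loxl3, collagen crosslinking enzymes, had log2 fold changes of 0.52 and 0.37, and Serpinh1, a collagen chaperone, 0.54. The summed level of Col1a1, Col1a2, Col3a1, Dcn, Lum, Pdgfra, Pdgfrb, Thy1, Cxcl12 and Lepr ranged from 119 CPM (KO 1) to 265 CPM (KO 2) in KO and from 118 to 173 CPM in WT. KO 1, the library lowest in these markers among KO, was the KO library highest in Col14a1. Its Col14a1 counting interval overlapped those of KO 2 and KO 3. Among WT libraries, Col14a1 was highest in WT 3, by 0.51 above its WT mean on the log2 scale. There the 8 tested markers of this stromal list stood on average 0.10 above their WT mean, with 0.15 in WT 1 and -0.25 in WT 2. Any relation between these markers and Col14a1 was not tested.

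Among the aldehyde dehydrogenases of class 1, Aldh1l1 was at 2.56 CPM per kb in KO and 3.71 CPM per kb in WT. Its mitochondrial counterpart Aldh1l2 was far rarer, at 0.120 CPM per kb in KO and 0.104 CPM per kb in WT, with 13, 50 and 45 counts in KO and 30, 28 and 34 in WT. The KO libraries of Aldh1l2 thus lay on both sides of the WT libraries (log2 fold change 0.21 ± 0.51 SE). Aldh1b1, a mitochondrial acetaldehyde and retinaldehyde dehydrogenase, was at 12.9 ± 2.61 CPM in KO, against 11.7 ± 0.553 CPM in WT (SD, n = 3 each; 0.14 ± 0.15 SE). Aldh1a1 and Aldh1a2, which make retinoic acid, had -0.28 ± 0.46 and -0.27 ± 0.43. None of the 4 passed, and Aldh1a3 and Aldh1a7 had at most 5 counts per library.

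In the wider folate pathway that Aldh1l1 drains, 0 of 27 tested genes passed and 0 had an unadjusted p under 0.05, with 12 below 0 and 15 above. Mthfd1, which makes and uses 10-formyltetrahydrofolate in the cytosol, had 764, 892 and 1097 counts in KO and 750, 634 and 967 in WT, and a log2 fold change of 0.22 ± 0.15 (SE). Mthfd1l, its mitochondrial relative, had 0.37 ± 0.22, and the folate importer Slc46a1 had 0.23 ± 0.14. Ggh, which trims the glutamate tail of folates, was at 67.6 ± 3.14 CPM in KO, against 71.5 ± 0.312 CPM in WT (SD, n = 3 each). Its KO libraries were all below its WT libraries, by little, and it did not pass (-0.08 ± 0.06 SE).

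**Figure D3:**
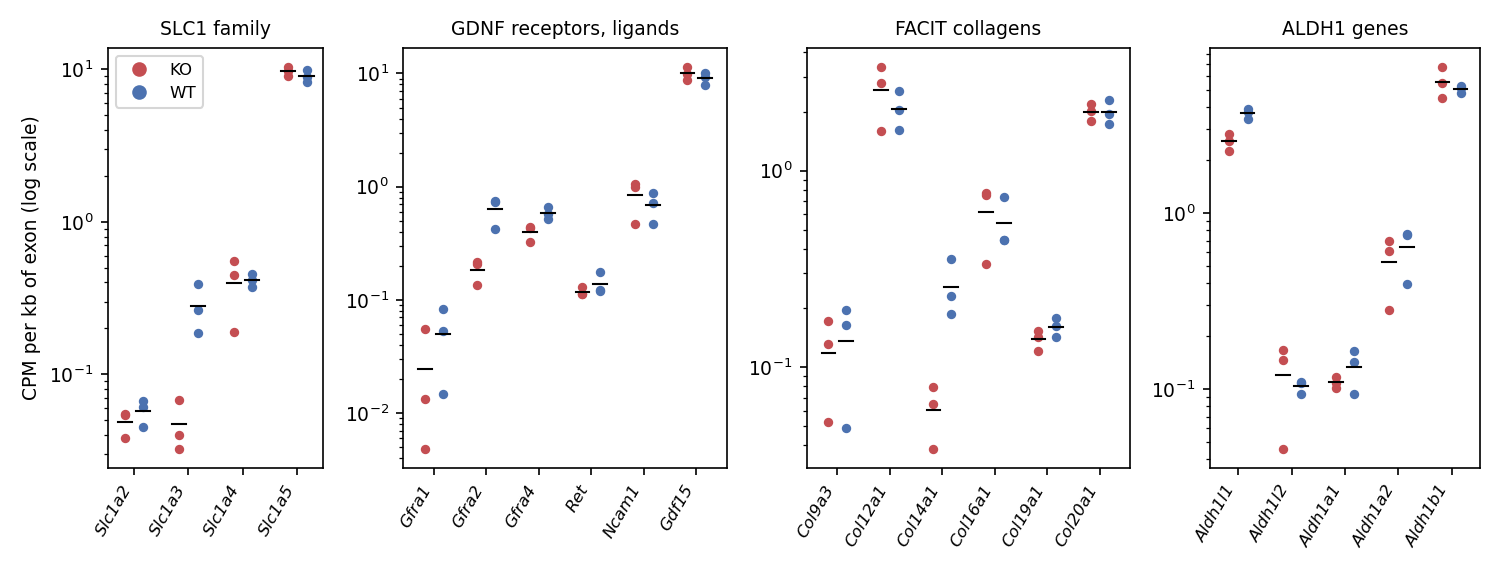
Level in CPM per kb of exon (y axis, log scale) of the tested genes in the families of the 4 chosen genes; dots are libraries, KO left of WT, and bars are means. KO and WT dots do not overlap for Slc1a3, Gfra2, Col14a1 and Aldh1l1, nor for Gfra4, which did not pass the test, and they overlap for the other genes shown.

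Markers of other cell types were summed in each library, without the 4 genes. Astrocyte markers other than Slc1a3 and Aldh1l1 had a summed level between 22.7 and 31.0 CPM in KO and between 23.6 and 30.2 CPM in WT, most of it Gja1 and Aldoc, and 0 of 9 tested passed. Of the 9, 6 lay below 0, with a median log2 fold change of -0.24. The mean deviation of the list from its mean over the 6 libraries, on the log2 scale, was -0.08, -0.15 and -0.22 in KO 1 to 3, against 0.05, 0.19 and 0.20 in WT 1 to 3. By that mean every KO library lay below every WT library, whereas the summed levels overlapped. The water channel gene Aqp4, had 5, 5 and 7 counts in KO and 12, 16 and 19 in WT (-1.45 ± 0.59 SE); its unadjusted p was under 0.05 and it did not pass. Gfap, the intermediate filament gene of astrocytes, had 132, 68 and 72 counts in KO and 86, 135 and 202 in WT, which overlap, S100b had -1.05 ± 0.60 and Fabp7 0.58 ± 0.39. Gjb6 had at most 3 counts per library.

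Of Schwann cell and neuron markers, Sox10, Ngfr and Elavl4 had at most 4 counts in any library. Endothelial markers (between 13.8 and 15.8 CPM in KO, between 12.9 and 17.2 CPM in WT) and hepatocyte markers (between 21.1 and 23.0 CPM in KO, between 19.8 and 38.7 CPM in WT) overlapped between genotypes, with 0 of 3 and 0 of 5 tested genes passing. The 3 adipocyte markers measured summed to at most 0.196 CPM. Of the 8 stromal markers tested 0 passed and 7 were above 0, Cxcl12 having the smallest p (27.8 ± 4.80 CPM in KO, 21.1 ± 0.882 CPM in WT, SD, n = 3 each). For the astrocyte, endothelial, hepatocyte, adipocyte and stromal lists DESeq2 and limma voom also called 0 genes, and edgeR gave an unadjusted p under 0.05 to 1 astrocyte marker, 1 stromal marker and 0 of the other 3 lists. The part of any such cells in the levels of the 4 genes was not tested.

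Resident macrophage markers were examined as another cell state the cultures could hold. Of 7 tested, edgeR and limma voom each called 1 and DESeq2 called 2; the edgeR p before adjustment was under 0.05 for 3, all lower in KO. The gene called by edgeR was Cd163, a scavenger receptor for haemoglobin bound to haptoglobin, which fell to 8.43, 8.41 and 9.25 CPM in KO 1 to 3, against 22.3, 29.2 and 30.6 CPM in WT 1 to 3 (log2 fold change -1.65 ± 0.13 SE, edgeR adjusted p = 0.000337). Timd4, a receptor for phosphatidylserine, had 12, 19 and 22 counts in KO and 42, 100 and 150 in WT, and Vsig4, a complement receptor, had 15, 30 and 34 in KO and 55, 70 and 145 in WT, without overlap and without passing in edgeR. Folr2 (0.13), Marco (0.07), Mrc1 (0.05) and Cd5l (-0.06), the other tested markers, lay near 0. Lyve1, Clec4f and Gata6 had at most 8 counts in any library. The summed level of the list was between 1825 and 2092 CPM in KO and between 1776 and 2086 CPM in WT, most of it Mrc1.

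The order of libraries within a genotype is given as a description, since the choice of the genes used every library's value. In WT, Slc1a3, Gfra2 and Col14a1 were all lowest in WT 1, by 0.51, 0.52 and 0.40 below their WT means on the log2 scale. Slc1a3 and Col14a1 were highest in WT 3, by 0.53 and 0.51, and Gfra2 stood at 0.28 in WT 2 and 0.25 in WT 3. Timd4 (-0.92 in WT 1, 0.72 in WT 3), Vsig4 (-0.48 and 0.73) and Cd163 (-0.28 and 0.17) had the same low and high library. Aldh1l1 did not share that order, at 0.03 in WT 1, 0.08 in WT 2 and -0.11 in WT 3.

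In KO the order of libraries differed between genes, but it rests on few counts. For Slc1a3 the counting interval of KO 1 (0.365 to 0.883 CPM) overlapped that of KO 2 (0.138 to 0.496 CPM). For Col14a1 that of KO 1 (0.345 to 0.851 CPM) overlapped that of KO 3 (0.134 to 0.482 CPM). For Gfra2 that of KO 1 (0.283 to 0.754 CPM) overlapped that of KO 3 (0.515 to 1.08 CPM). These intervals do not set the KO orders apart from counting error. Overlap of intervals is no test of a difference, however, and differences between KO libraries were not tested for these genes. Slc1a3 and Col14a1 were highest in KO 1 (0.55 and 0.40 above the KO mean), whereas Gfra2 was lowest there (-0.39), as were Timd4 (-0.40) and Vsig4 (-0.61). The stromal list stood at -0.68 in KO 1 and 0.49 in KO 2, and at 0.15, -0.25 and 0.10 in WT 1 to 3. Its relation to the chosen genes was not tested. The macrophage list moved by at most 0.05 in any library.

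**Figure D4:**
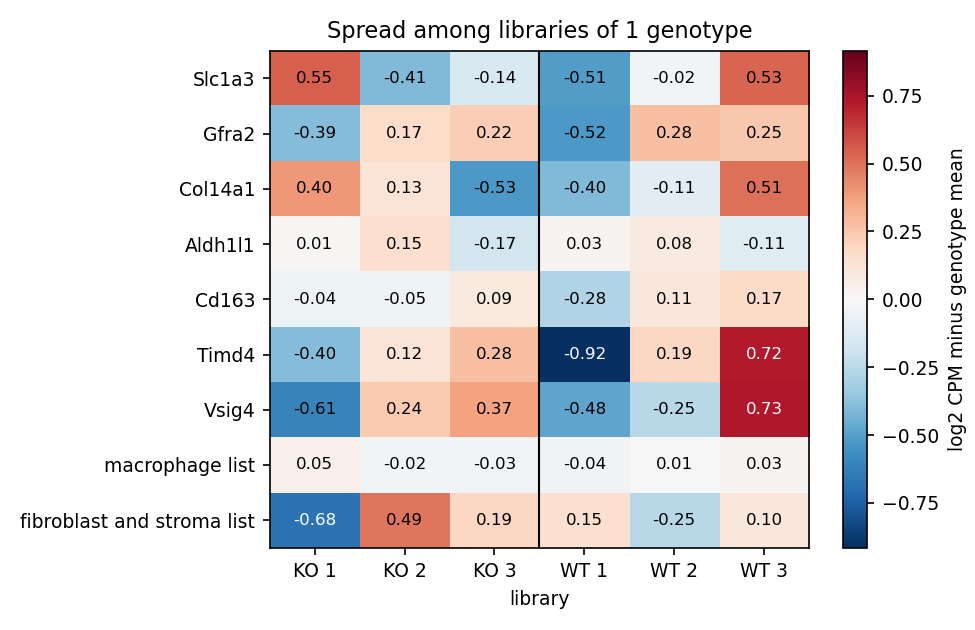
Log2 CPM minus the mean of its own genotype (colour and printed value) for the 4 chosen genes, 3 resident macrophage genes and the mean of 2 marker lists (rows) in each library (columns, KO left of WT). In WT the values of Slc1a3, Gfra2, Col14a1, Cd163, Timd4 and Vsig4 are lowest in WT 1. In KO 1 those of Slc1a3 and Col14a1 are positive while those of Gfra2, Timd4 and Vsig4 are negative. The counting intervals of the KO libraries overlap within Slc1a3, Col14a1 and Gfra2.

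Likeness of pattern was measured as the root mean square difference of log2 CPM, each gene being centred on its mean over the 6 libraries. Among the 4, Slc1a3 and Col14a1 were nearest to each other (0.37), Gfra2 and Col14a1 next (0.51), and Aldh1l1 was 0.68 or more from each of the others. Of all other tested genes averaging 1 CPM or more, Cd163 was nearest to Gfra2 (0.22) and was also among the 3 nearest to Slc1a3 (0.53) and Col14a1 (0.39). Btnl6, a butyrophilin-like gene, was nearest to both Slc1a3 (0.51) and Col14a1 (0.30), and Timd4 was next for Slc1a3 (0.53). Itgad, an integrin gene of macrophages (0.25), and Vcam1, an adhesion molecule (0.26), followed Cd163 for Gfra2, and Mrap, an accessory protein of the ACTH receptor, followed Btnl6 for Col14a1 (0.36). Vcam1 is abundant, at 41.7, 80.1 and 70.5 CPM in KO and 120, 152 and 201 CPM in WT. The genes nearest to Aldh1l1 were Il1a, an inflammatory cytokine gene (0.09), Bank1 (0.11) and Zfp791 (0.11). Of these 9 genes only Cd163 passed the test, and likeness over 6 libraries is a description that the gap between genotypes largely sets.

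Genes next to the 4 on the chromosome were not part of the choice. The 3 nearest tested genes on each side gave 24 neighbours, of which 0 passed in edgeR, DESeq2 or limma voom, edgeR gave 1 an unadjusted p under 0.05, and 11 lay below 0. Nipbl and Nadk2, on either side of Slc1a3, had log2 fold changes of 0.01 ± 0.08 and -0.08 ± 0.11 (SE). Dok2 and Fndc3a flank Gfra2 (-0.01 ± 0.21 and 0.01 ± 0.05), and Deptor and Mrpl13 flank Col14a1 (-0.06 ± 0.11 and 0.03 ± 0.11), Mrpl13 being 13.3 kb away. Slc41a3, 5.56 kb from Aldh1l1, had 0.04 ± 0.09.

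The exception was Klf15, on the other side of Aldh1l1 (chromosome 6, 90461043 to 90491803, 59.0 kb away by RefSeq positions). In GENCODE M21 Aldh1l1 begins further upstream, at 90486427, which lies inside this RefSeq span of Klf15. Klf15, a zinc finger transcription factor known as a target of the glucocorticoid receptor, had 5, 5 and 4 counts in KO and 31, 28 and 31 counts in WT. Its libraries did not overlap, and its log2 fold change was -2.66 ± 0.54 (SE), but it did not pass (edgeR adjusted p = 0.620). Which annotation the counting used is not known here.

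**Figure D5:**
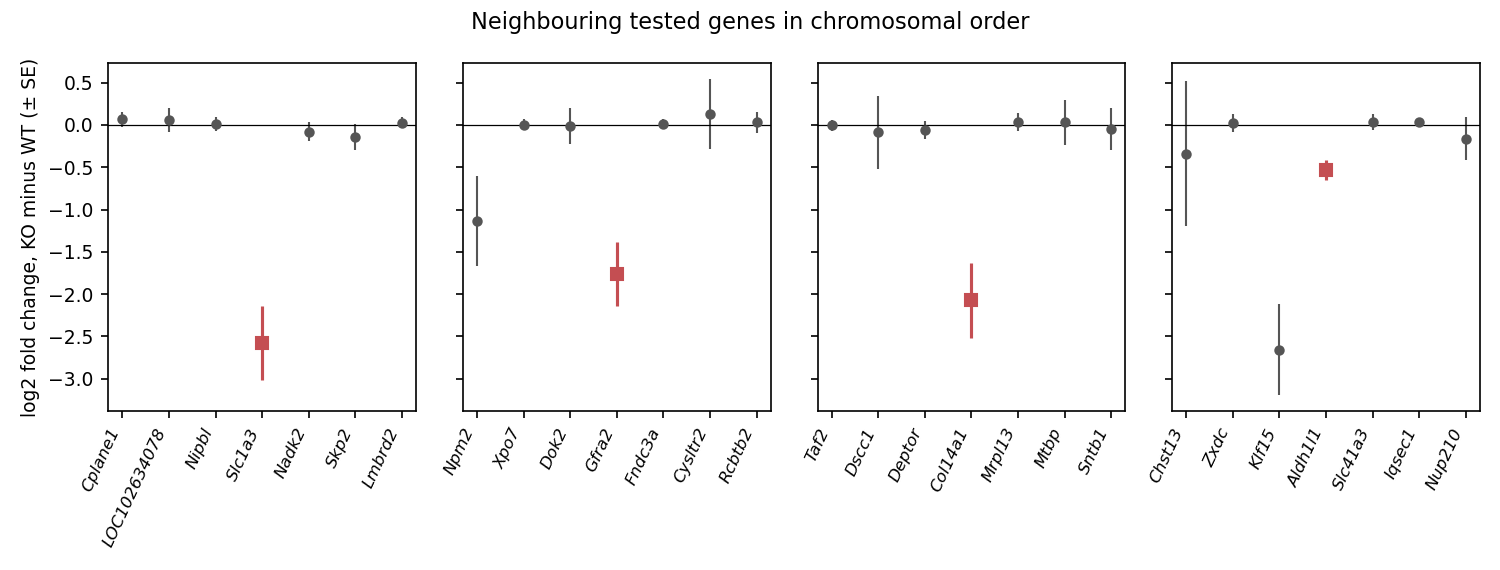
Log2 fold change, KO minus WT, with its standard error (y axis) for each chosen gene (red square) and the 3 nearest tested genes on each side (grey points) in chromosomal order (x axis). Slc1a3, Gfra2 and Col14a1 lie below all their plotted neighbours, whereas Klf15 (-2.66) lies below Aldh1l1 (-0.54).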

How the data were processed

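Per the labels' protocols, TRIzol was used to isolate total RNA from 3 KO and 3 WT BMDM samples, and libraries were prepared by VAHTS Universal V6. The authors deposited raw read counts per gene, made with fastp, HISAT2 and HTSeq on mm10, per the submitters' processing notes; versions, annotation, strand setting and filters are not given in the sources used. Counts on shared or overlapping sequence may be split or dropped. Totals ran from 37021855 to 41033179 per library, and 3 counts correspond to between 0.0730 and 0.0813 CPM.

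Counts were tested in edgeR 4.0.16 (R 4.3.3) with TMM factors, filterByExpr (minimum count 10), robust legacy quasi-likelihood fits, and Benjamini-Hochberg adjustment over 12605 genes at 0.05. The common biological coefficient of variation was 0.122. The SE is the absolute log2 fold change over the square root of F. Log2 CPM used a prior count of 2. Levels per kb used exon unions of GENCODE M21, and neighbours used RefSeq positions, matched by Entrez ID for 12584 genes. The steps were tested on simulated data. Genes and lists were chosen with earlier results of these data known. Named are the 4 genes, Trmt61a, all family genes measured, the 3 genes nearest in pattern, and the adjoining genes. The 4 genes of smallest p are also named for the pathway, macrophage, astrocyte and resident macrophage lists, but not for every other marker list. Others were chosen after their values were seen. No pair of libraries agreed within sampling noise (chi-square per degree of freedom from 11.4 to 34.2). Alternatives were other normalizations, filters, DESeq2 1.42.0, limma 3.58.1 voom, a replicate block and leaving out libraries. Some marker genes, and the list totals that include them, are not reported here.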

Additional observations from a re-analysis of the deposited data

How the results depend on the processing

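The log2 fold changes of the 4 genes kept their direction under 14 alternatives each. For fits that left out libraries, the choice of the genes fixed that direction in advance. All moved by less than the larger of the KO and WT SDs of log2 CPM, a margin that leaving out a single library can hardly exceed. The log2 fold changes are therefore given here as a description. They ran from -2.98 to -2.26 for Slc1a3, from -1.99 to -1.45 for Gfra2, from -2.38 to -1.77 for Col14a1 and from -0.62 to -0.46 for Aldh1l1, the ends coming from fits that left out libraries. The number of genes called was 4, against 16 with DESeq2 and 8 with the replicate block; the cause was not tested. It was 6 without KO 1 and WT 2, an alternative chosen after seeing the data, and from 3 to 5 when single libraries were left out. The counts of 0 called family and pathway genes and 0 called neighbours held in all 14 alternatives. Correlations of deviations between same-numbered KO and WT libraries were 0.03, -0.13 and 0.25. Differently numbered libraries were not compared in this way, so these values do not settle whether libraries are paired. The labels state no pairing, and the main fit did not take the replicate numbers as pairs. Of the 12 pairs of a chosen gene and a gene nearest in pattern (9 distinct genes), 11 remained with a prior count of 0.5 and 12 with no scaling factors. With 11 to 31 counts per KO library, the levels of Slc1a3, Gfra2 and Col14a1 in KO are set by few reads.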
